A study of Mus musculus with 2 samples.

Results

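The 9 genes described here belong to the ATR-CHK1 checkpoint and to the repair of replicating DNA: Atr, Topbp1, Rpa1, Rpa2, Chek1, Wee1, Cdc25a, Rrm2 and Brca1. They were chosen by name, out of 32285 genes in the deposited tables, and all 9 had UMIs in both libraries. Single cells of mouse pancreatic tumours were profiled in 2 libraries, 1 named EL1 and 1 named WTg, both from mice of 6 weeks. EL1 is the line FVB/N-EL1-Luc/EL1-TAg, which carries the SV40 T antigen and luciferase, each behind the rodent pancreatic elastase I promoter, a promoter active in acinar cells. WTg mice are double transgenic: beside both EL1 transgenes they carry a Mettl3 reading frame from C57BL/6J behind the CAG promoter, which is active in most cell types. The Mettl3 line was made in BL/6 mice and crossed with EL1, so the strain background differs together with the transgene and the influence of each cannot be told apart. The number of animals in each library and their sex are not stated. The T antigen, which binds p53 and the retinoblastoma protein, was thus carried by both groups.

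A cell is a barcode with at least 500 genes, at least 1000 UMIs (unique molecular identifiers, each standing for 1 captured RNA molecule) and at most 20% mitochondrial UMIs. This left 1113 of 1621 barcodes in EL1 and 905 of 1488 in WTg, with medians of 26543 and 34836 UMIs. The libraries shared 15 barcode sequences over all barcodes and 0 among the cells kept. Levels are in CPM, a gene's UMIs scaled to the total UMIs of the same cells. Mettl3, the check on the labels, stood at 15.1 CPM in EL1 against 66.7 CPM in WTg. Of 10 acinar markers, 10 were detected in both libraries. With 1 library per group no difference could be tested, and every interval given here is a 95% interval of counting error only. Called means a log2 ratio of at least 1 in either direction among genes with at least 50 UMIs in the cells compared.

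When a replication fork stalls, single-stranded DNA is exposed and coated by replication protein A (RPA), to which the kinase ATR is recruited. TOPBP1 switches ATR on, ATR phosphorylates the kinase CHK1, and CHK1 restrains cyclin-dependent kinases by marking the phosphatase CDC25A for degradation, while WEE1 holds the same kinases inactive by phosphorylating them. Ribonucleotide reductase, whose small subunit is RRM2, makes the deoxynucleotides that forks consume, and BRCA1 protects stalled forks and acts in homologous recombination. Much of this control acts on proteins, by phosphorylation and degradation, which RNA counts do not show. Several of these genes are known targets of E2F transcription factors, which the retinoblastoma protein holds in check.

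E2F letters (TTCCCGC or TTGGCGC, on either strand) were therefore looked for in promoters of RefSeq (GRCm38.p6), in a window of 300 bases from 250 before to 50 after the start. Entries were found for 8 of the 9 genes, all but Wee1. E2F letters were in 5 of these 8 promoters (62.5%), in 18 of 57 promoters of the wider pathway (31.6%) and in 6.81% of all 32851 promoters. CCAAT letters were in 5 of the 8, against 37.4% of all promoters, and the CHR letters TTTGAA were in 0 of the 8, against 17.9%. The 150 bases before the start are shown for the 3 genes with E2F letters in this stretch, and for Atr and Rrm2, which had none in the window and which differed most in their ratios between cycling and non-cycling cells. Capitals mark the E2F letters.
Atr, chr9:95857447-95857596, plus strand: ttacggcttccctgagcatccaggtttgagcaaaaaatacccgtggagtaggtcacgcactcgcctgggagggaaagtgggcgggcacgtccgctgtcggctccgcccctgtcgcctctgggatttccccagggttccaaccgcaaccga
Topbp1, chr9:103305177-103305326, plus strand: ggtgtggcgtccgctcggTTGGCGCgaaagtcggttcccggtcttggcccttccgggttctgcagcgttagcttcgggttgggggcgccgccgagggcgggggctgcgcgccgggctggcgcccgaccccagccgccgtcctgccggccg
Rpa2, chr4:132768210-132768359, plus strand: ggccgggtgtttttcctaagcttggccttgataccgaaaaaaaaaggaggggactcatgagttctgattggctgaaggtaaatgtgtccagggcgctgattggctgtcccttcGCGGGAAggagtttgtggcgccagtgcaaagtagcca
Cdc25a, chr9:109875429-109875578, plus strand: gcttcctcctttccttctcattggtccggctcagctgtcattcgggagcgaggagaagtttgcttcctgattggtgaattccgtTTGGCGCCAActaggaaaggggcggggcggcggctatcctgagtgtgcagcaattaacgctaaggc
Rrm2, chr12:24708104-24708253, plus strand: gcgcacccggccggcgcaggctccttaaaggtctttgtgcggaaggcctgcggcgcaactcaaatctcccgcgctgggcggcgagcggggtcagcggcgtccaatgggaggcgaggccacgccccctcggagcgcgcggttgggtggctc
In Cdc25a, 2 matches overlapped, beginning 66 and 63 bases before the start. The match began 37 bases before the start in Rpa2 and 132 bases before it in Topbp1. The start meant here is that of the RefSeq promoter entry. It can differ from the gene positions given below, as it does for Topbp1, Rpa1, Rpa2, Chek1 and Rrm2. In Chek1 and Brca1 the letters lay after the start, and Rpa1 had none. A match is a run of letters and not a measured binding site.

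Cells were split by their own RNA. A cell with at least 1 UMI of Top2a or Mki67, which encode a DNA topoisomerase and a nuclear protein of dividing cells, was counted as cycling. Cycling cells were 553 of 1113 in EL1 (49.7%, 46.7 to 52.7, exact Clopper-Pearson) and 459 of 905 in WTg (50.7%, 47.4 to 54.0). The split follows depth, since cycling cells had medians of 37148 (EL1) and 42723 (WTg) UMIs and the others 19998.5 and 23468.5. After each cell was thinned to 10000 UMIs, the shares were 35.9% of 943 cells in EL1 and 39.8% of 703 in WTg, while 170 and 202 shallower cells were left out. In immune-like clusters the same UMIs were found in 7 of 50 cells (14.0%) in EL1 and 8 of 67 (11.9%) in WTg. Median depths there were 6881.5 and 8161 UMIs. These cells held 129 such UMIs in EL1 and 54 in WTg, so they can include dividing cells. The shares are therefore not a rate of stray UMIs.

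Rrm2, Brca1 and Rpa1 were called higher in cycling than in non-cycling cells of both libraries, and Rpa2 in EL1. Chek1, Cdc25a and Topbp1 were higher in cycling cells by less than the called size, and the Atr ratio was within counting error. In EL1, 4 of the 9 genes were called higher and 0 lower, where 5.13% of all 12238 genes with enough UMIs were called higher and 2.29% lower. In WTg, 3 of the 9 were called higher and 0 lower, where 4.04% of 12164 genes were called higher and 5.5% lower. The median log2 ratio of the 9 was 0.84 in EL1 and 0.66 in WTg, beside medians over all genes of 0.05 and 0.06.

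**Figure D1:**
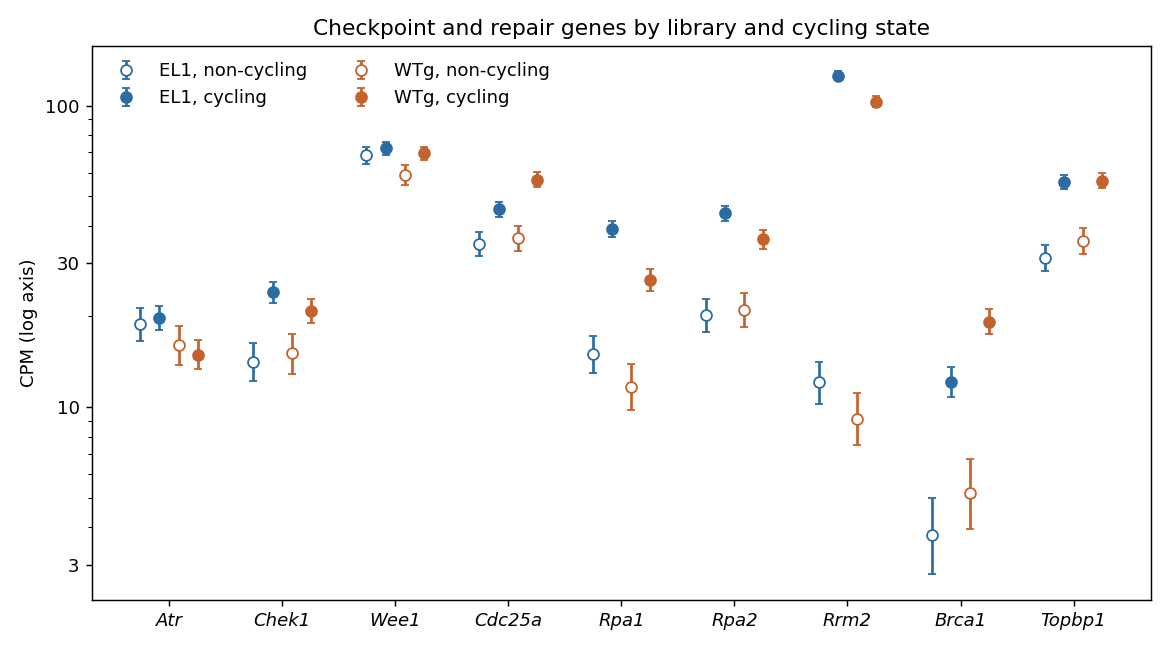
Level of the 9 genes in CPM (log axis) in cycling (filled) and non-cycling (open) cells of EL1 (blue) and WTg (orange). Points are UMI sums over all cells of a state and bars are exact 95% Poisson intervals. The intervals of the states are apart in both libraries for all genes but Atr, where they overlap in both, and Wee1, where they overlap in EL1.

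Atr (ENSMUSG00000032409, chromosome 9, 95857597 to 95951781, plus strand, GRCm38), the apical kinase, stood in EL1 at 18.9 CPM (16.6 to 21.4) in non-cycling cells against 19.8 CPM (18.1 to 21.6) in cycling cells. In WTg the non-cycling level was 16.1 CPM (13.8 to 18.6) and the cycling level 14.9 CPM (13.4 to 16.7). The log2 ratios of cycling over non-cycling cells, 0.07 (-0.15 to 0.30) in EL1 and -0.11 (-0.37 to 0.16) in WTg, both held 0. With each cell weighted equally the ratio was 0.44 in EL1 and -0.08 in WTg. Antisense genes overlap Atr (Gm16794 over 9737 bases and 1700065D16Rik over 726 bases) and had at most 16 UMIs in a library, against 506 or more of Atr.

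Topbp1 (ENSMUSG00000032555, chromosome 9, 103305215 to 103350428, plus strand), the activator of ATR, was higher in cycling cells of both libraries. In EL1 non-cycling cells had 31.3 CPM (28.3 to 34.5) and cycling cells 55.9 CPM (53.0 to 58.9). In WTg these were 35.7 CPM (32.3 to 39.4) and 56.4 CPM (53.3 to 59.6). The log2 ratios were 0.84 (0.68 to 0.9997) for EL1 and 0.66 (0.50 to 0.83) for WTg.

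Rpa1 (ENSMUSG00000000751, chromosome 11, 75298166 to 75348324, minus strand), which encodes the largest RPA subunit, had 15.03 CPM (13.0 to 17.3) in non-cycling and 39.0 CPM (36.6 to 41.5) in cycling cells of EL1. In WTg non-cycling cells had 11.7 CPM (9.76 to 13.9), and cycling cells 26.5 CPM (24.3 to 28.7). The log2 ratios, 1.38 (1.15 to 1.60) and 1.18 (0.90 to 1.46), were both past the called size. Rpa2 (ENSMUSG00000028884, chromosome 4, 132768332 to 132778752, plus strand), the middle subunit and a substrate of ATR, had 20.2 CPM (17.8 to 22.8) and 43.9 CPM (41.4 to 46.6) in the same states of EL1. In WTg the levels were 21.03 CPM (18.4 to 23.9) and 36.0 CPM (33.5 to 38.6). Its log2 ratios were 1.12 (0.93 to 1.32) and 0.78 (0.56 to 0.99), and the intervals overlapped.

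Chek1 (ENSMUSG00000032113, chromosome 9, 36708482 to 36727065, minus strand), the effector kinase, was at 14.2 CPM (12.2 to 16.4) in non-cycling and 24.1 CPM (22.2 to 26.1) in cycling cells of EL1. In WTg it was at 15.1 CPM (12.9 to 17.6) without and 20.8 CPM (19.0 to 22.8) with Top2a or Mki67 UMIs. The log2 ratios of 0.76 (0.52 to 1.01) and 0.46 (0.21 to 0.73) lay above 0 and under the called size.

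Downstream of CHK1, Wee1 (ENSMUSG00000031016, chromosome 7, 110122046 to 110143286, plus strand) varied little with state. In EL1 it had 68.4 CPM (63.9 to 73.0) in non-cycling and 72.1 CPM (68.8 to 75.5) in cycling cells, a log2 ratio of 0.08 (-0.04 to 0.19). The WTg levels were 59.1 CPM (54.6 to 63.7) in non-cycling and 69.5 CPM (66.0 to 73.0) in cycling cells, with a ratio of 0.23 (0.10 to 0.37). An antisense gene, 1600010M07Rik, overlaps Wee1 over 21241 bases and had 13 UMIs in EL1 and 12 in WTg, against 2688 and 2177 of Wee1. Whether the counting used strand is not stated. Cdc25a (ENSMUSG00000032477, chromosome 9, 109875579 to 109893895, plus strand), which opposes WEE1 by removing the inhibitory phosphate, had 34.8 CPM (31.6 to 38.1) in non-cycling and 45.3 CPM (42.7 to 48.1) in cycling cells of EL1. In WTg the levels were 36.3 CPM (32.9 to 40.0) and 56.8 CPM (53.7 to 60.1). The Cdc25a ratio was 0.38 (0.23 to 0.54) in EL1 and 0.65 (0.48 to 0.81) in WTg.

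Rrm2 (ENSMUSG00000020649, chromosome 12, 24708241 to 24714146, plus strand) had the largest ratio of the 9 in both libraries. In EL1 it was at 12.1 CPM (10.3 to 14.1) in non-cycling and 126 CPM (121 to 130.1) in cycling cells, a fold of 10.4. In WTg it was at 9.17 CPM (7.48 to 11.1) and 103 CPM (98.7 to 107), a fold of 11.2. The log2 ratios were 3.38 (3.14 to 3.62) and 3.49 (3.20 to 3.79). Within clusters the log2 ratio was smaller, 1.77 in EL1 and 2.76 in WTg, and with each cell weighted equally it was 2.38 in WTg. Single cells held up to 84 Rrm2 UMIs in EL1 and 90 in WTg.

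Brca1 (ENSMUSG00000017146, chromosome 11, 101488764 to 101551955, minus strand) had 49 UMIs in non-cycling and 303 in cycling cells of EL1, and 58 and 421 in WTg. The levels were 3.78 CPM (2.79 to 4.99) against 12.1 CPM (10.8 to 13.6) in EL1, and 5.21 CPM (3.96 to 6.74) against 19.2 CPM (17.4 to 21.2) in WTg. The log2 ratios were 1.68 (1.24 to 2.15) and 1.88 (1.49 to 2.31). At this depth few cells showed a Brca1 UMI: after thinning to 10000 UMIs, 11.1% of cycling and 2.56% of non-cycling cells in EL1, and 14.6% and 5.14% in WTg.

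Cycling cells also showed more of the 9 genes when the counts were thinned to equal depth. Here, as for Brca1 above, the state was still set from the UMIs before thinning, so it follows depth. After thinning to 10000 UMIs, at least 3 of the 9 were found in 273 of 513 (53.2%, 48.8 to 57.6) cycling cells of EL1, against 94 of 430 (21.9%, 18.0 to 26.1) non-cycling cells. In WTg they were found in 205 of 411 (49.9%, 44.9 to 54.8) cycling and 72 of 292 (24.7%, 19.8 to 30.02) non-cycling cells. The genes were unequal in this. Rrm2 was found in 38.0% of cycling and 10.7% of non-cycling cells of EL1, and in 35.5% and 10.6% in WTg. Atr was found in 18.3% and 16.3% in EL1, and in 15.3% and 17.8% in WTg. No like count for other genes is given here. Markers of other cell types moved with the split. Of macrophage markers 7 of 7 were detected in each state, with a summed level of 199 CPM in cycling and 498 CPM in non-cycling cells of EL1, and of 381 and 1061 CPM in WTg. Of 5 neutrophil markers 4 were detected in cycling and 5 in non-cycling cells of each library, with sums of 0.72 and 220.1 CPM in EL1 and of 0.96 and 125 CPM in WTg. Of 6 fibroblast markers 4 and 6 were detected in EL1, with sums of 0.36 and 72.9 CPM, and 6 in each state of WTg, with 11.3 and 71.2 CPM. Endothelial markers summed to 17.6 and 15.7 CPM in EL1 and to 44.0 and 182 CPM in WTg, and erythroid markers to 65.3 and 152 CPM in EL1 and to 7.40 and 89.3 CPM in WTg. The part of these cells in the ratios was not tested.

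Within single clusters the genes were unequal too. Among 9 library-by-cluster groups with at least 20 cells in each state, the counting interval of the ratio lay above 0 in 8 groups for Rrm2, in 7 each for Rpa1, Rpa2 and Topbp1, and in 5 for Cdc25a. It lay above 0 in 4 groups for Brca1, in 2 for Chek1 and in 1 for Atr. For Wee1 it lay above 0 in 0 groups and below 0 in 1. The ratio itself was above 0 in 9 groups each for Rrm2, Rpa1, Rpa2, Topbp1 and Brca1. It was above 0 in 8 each for Chek1 and Cdc25a, in 6 for Wee1 and in 3 for Atr. Intervals are wide where UMIs are few, as for Brca1 with 2 in non-cycling cells of WTg cluster 7. No like count over all genes is given. The Rrm2 ratios of the 9 groups ran from 1.06 to 2.76, those of Rpa1 from 0.74 to 1.74 and those of Topbp1 from 0.27 to 0.98.

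A split at 1 UMI mixes weakly and strongly dividing cells, so the 9 genes were also followed over 5 levels of Top2a and Mki67 UMIs. Cell numbers from the lowest to the highest level were 560, 243, 115, 120 and 75 in EL1 and 446, 172, 131, 82 and 74 in WTg. Median UMIs per cell were higher at the top level (64190 in EL1 and 57514 in WTg) than at the lowest.

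**Figure D2:**
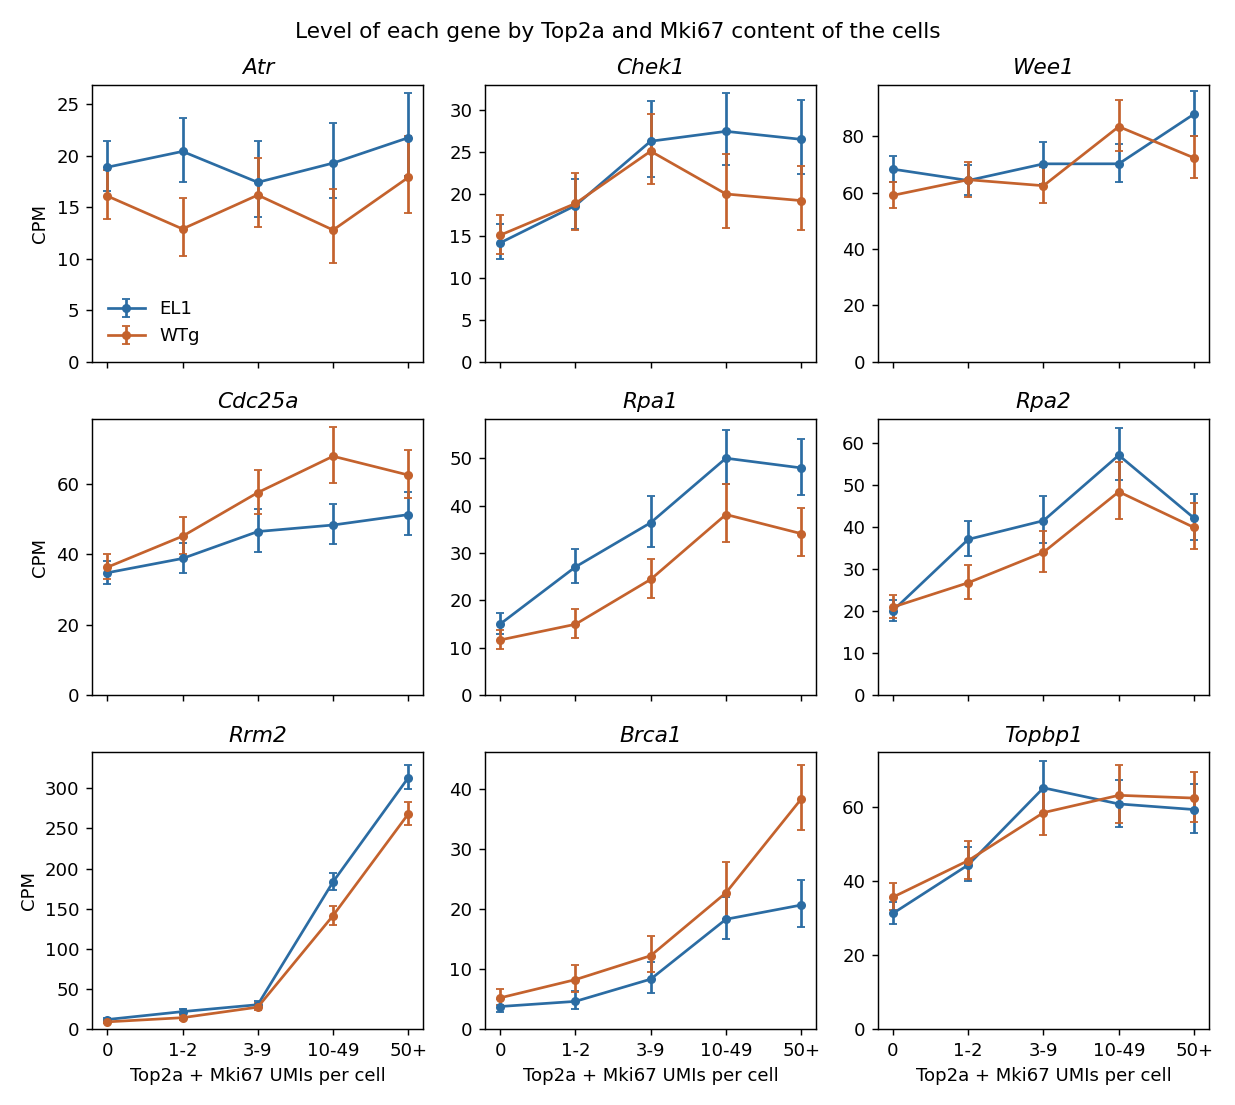
Level of each gene in CPM against the number of Top2a and Mki67 UMIs per cell (0, 1 to 2, 3 to 9, 10 to 49, 50 or more) in EL1 (blue) and WTg (orange), with exact 95% Poisson intervals. Rrm2 goes from 12.1 to 313 CPM in EL1 and from 9.17 to 268 CPM in WTg between the lowest and the highest level, whereas Atr lies between 12.8 and 21.7 CPM at every level of both libraries.

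Over these levels the genes had different shapes. Rrm2 was far higher from 10 UMIs on: it stood in EL1 at 12.1, 22.0, 30.6, 184 and 313 CPM, and in WTg at 9.17, 14.4, 27.5, 142 and 268 CPM. Brca1 was highest at the top level, with 3.78, 4.63, 8.32, 18.3 and 20.6 CPM in EL1 and 5.21, 8.24, 12.2, 22.7 and 38.3 CPM in WTg. At that level its intervals were apart between the libraries, 20.6 CPM (16.996 to 24.8) for EL1 against 38.3 CPM (33.2 to 43.9) for WTg.

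Rpa1 and Rpa2 were highest at 10 to 49 UMIs in both libraries. Rpa2 stood there at 57.2 CPM (51.3 to 63.6) in EL1, above its 42.2 CPM (36.9 to 48.0) at 50 UMIs or more, while in WTg the values of 48.5 CPM (42.0 to 55.7) and 40.0 CPM (34.8 to 45.8) overlapped. Topbp1 differed little from 3 UMIs on, between 59.3 and 65.2 CPM in EL1 and between 58.5 and 63.2 CPM in WTg. Chek1 was at 26.3 CPM (22.1 to 31.1) (EL1) and 25.1 CPM (21.2 to 29.5) (WTg) for 3 to 9 UMIs. At the top level it was at 26.5 CPM (22.4 to 31.2) and 19.2 CPM (15.7 to 23.4).

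Wee1 was higher than in cells with none at the top level alone in EL1 and at both upper levels in WTg. In EL1 it was at 87.9 CPM (80.2 to 96.2) for 50 UMIs or more, above the 68.4 CPM (63.9 to 73.0) of cells with none, and at 70.2 and 70.3 CPM at the levels of 3 to 9 and 10 to 49 UMIs. In WTg it was at 83.4 CPM (74.9 to 92.7) for 10 to 49 UMIs and 72.3 CPM (65.3 to 80.0) for 50 or more, above 59.1 CPM (54.6 to 63.7). Cdc25a in WTg went from 36.3 CPM (32.9 to 40.0) in cells with none to 67.8 CPM (60.1 to 76.2) at 10 to 49 UMIs, and in EL1 from 34.8 CPM (31.6 to 38.1) to 51.2 CPM (45.4 to 57.6) at the top level.

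Cycling cells were also divided by phase, into S-leaning and G2/M-leaning cells, by whether a score over 32 S genes or over 50 G2/M genes was the higher (370 and 183 cells in EL1, 301 and 158 in WTg). The division is a range and not a type: 27 and 21 of these cells in EL1, and 29 and 22 in WTg, lay near the cut. It was repeated for cells with at least 10 Top2a and Mki67 UMIs (71 and 124 cells in EL1, 61 and 95 in WTg), a limit chosen after seeing the data. G2/M-leaning cells also held more Top2a than S-leaning cells, 439 against 70.1 CPM in EL1 and 487 against 93.4 CPM in WTg. Under the stricter limit Top2a was at 488 against 215 CPM in EL1 and 602 against 288 CPM in WTg. The part of this in the phase ratios, such as those of Rrm2, was not tested. Over all genes, the median ratio of G2/M over S was 0.05 in EL1 and 0.14 in WTg for all cycling cells. Under the stricter limit it was -0.03 and 0.08. For all cycling cells 1 of the 9 was called higher in each library, where 4.92% and 6.00% of all genes were. Under the stricter limit 0 were called higher, where 2.90% and 4.27% were. There 0 in EL1 and 1 in WTg were called lower, where 0.98% and 1.58% were.

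Among these strongly dividing cells, the interval of G2/M over S lay below 0 for 3 of the 9 genes in EL1 and 6 in WTg. No like count over all genes is given. The RPA genes and Topbp1 were lower in G2/M-leaning cells of both libraries. Topbp1 had log2 ratios of -0.27 (-0.50 to -0.04) in EL1 and -0.45 (-0.69 to -0.21) in WTg. The median of the 9 was -0.23 in EL1 and -0.39 in WTg. Rpa2 stood at 73.0 CPM (64.2 to 82.5) in S-leaning and 40.0 CPM (35.7 to 44.7) in G2/M-leaning cells of EL1. In WTg it stood at 65.7 CPM (57.3 to 75.0) and 31.7 CPM (27.4 to 36.5). The log2 ratios of G2/M over S were -0.87 (-1.11 to -0.62) and -1.05 (-1.34 to -0.76), and over all cycling cells -0.35 and -0.54. Rpa1 had -0.65 (-0.90 to -0.40) and -0.38 (-0.70 to -0.06), against 0.04 and 0.16 over all cycling cells, so its difference was seen under the stricter limit.

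Rrm2 was the only gene of the 9 whose interval lay above 0 in G2/M-leaning cells of both libraries under both limits. Its ratios were 0.43 (0.30 to 0.55) in EL1 and 0.46 (0.32 to 0.61) in WTg among strongly dividing cells, and 1.95 and 1.82 over all cycling cells. Brca1 turned from 0.93 and 0.55 over all cycling cells to -0.23 (-0.64 to 0.19) and -0.39 (-0.73 to -0.04). Chek1 and Cdc25a were lower in strongly dividing G2/M-leaning cells of WTg, at -0.84 (-1.28 to -0.41) and -0.71 (-0.94 to -0.47), whereas their EL1 values, -0.30 (-0.65 to 0.05) and -0.14 (-0.40 to 0.12), held 0. Whether the libraries differed in this was not tested.

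The cells formed 17 clusters, found without the 9 genes, the pathway genes and the phase genes. Of these, 8 could be named from markers, and 9 clusters, with 61.4% of the cells, were at least 90% from 1 library, so that for them cluster and library cannot be told apart. There were 19 library-by-cluster groups of at least 20 cells, 11 of EL1 and 8 of WTg. Their order for each gene is a description: of 10 neighbouring pairs in EL1 and 7 in WTg, the intervals overlapped in 7 and 4 for Rrm2 and for Wee1, and in 10 and 6 for Rpa1.

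**Figure D3:**
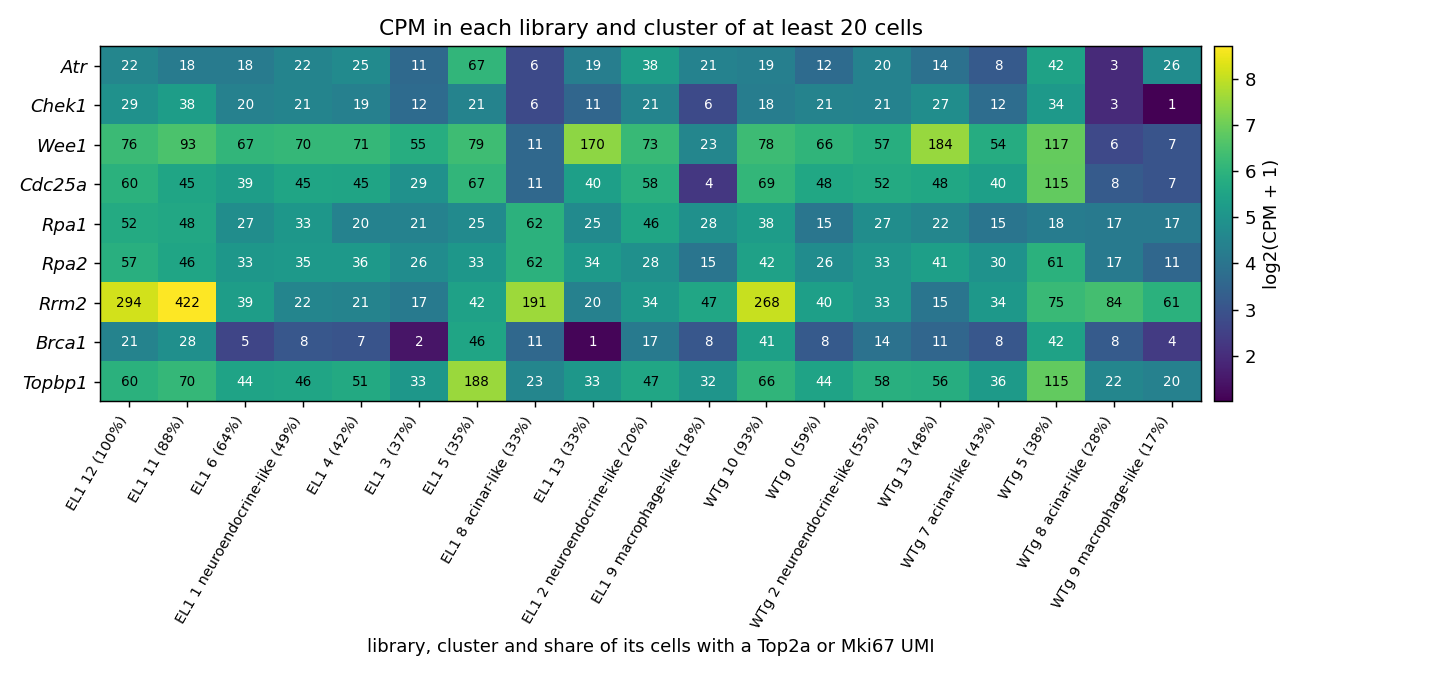
Level of each gene in CPM (printed, colour as log2(CPM + 1)) in the 19 library-by-cluster groups, ordered within each library by the share of cells with a Top2a or Mki67 UMI (in brackets). Rrm2 is highest in EL1 cluster 11 and WTg cluster 10, and Wee1 in cluster 13 of both libraries.

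Rrm2 reached 422 CPM (400.3 to 445) in EL1 cluster 11, led by Atp4b and Klk1, and 294 CPM (277 to 312) in EL1 cluster 12, led by histone genes. In WTg it was highest in cluster 10, led by histone genes and Top2a, at 268 CPM (253 to 283). It was lowest in EL1 cluster 3, led by S100g, at 17.4 CPM (14.5 to 20.8), and in WTg cluster 13 at 14.95 CPM (8.18 to 25.1).

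Wee1 followed another pattern. It was highest in cluster 13, 27 cells of each library led by the immediate early gene Fos, by Klf2 and by stress genes such as Hspa1a, at 170.2 CPM (143 to 200.3) in EL1 against 184 CPM (157 to 213) in WTg. Both intervals lay above that of the next group, EL1 cluster 11 at 92.9 CPM (82.9 to 104) and WTg cluster 5 at 117 CPM (89.1 to 152). In cluster 13, 33.3% of EL1 cells and 48.1% of WTg cells had a Top2a or Mki67 UMI.

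Cluster 5 held shallow barcodes led by Gm26917, Kcnq1ot1 and Malat1, the latter pair RNAs retained in the nucleus, at a median of 2051 UMIs. It had the highest Topbp1, 188 CPM (137 to 251) in EL1 against 115 CPM (87.3 to 149) in WTg, and the highest Atr, 66.7 CPM (38.1 to 108) and 42.5 CPM (26.3 to 64.9). Brca1 was at 45.9 CPM (22.9 to 82.1) and 42.5 CPM (26.3 to 64.9) there, from 11 and 21 UMIs. Barcodes that the filter removed had 60.3 CPM of Atr in EL1 and 35.4 CPM in WTg. The part of low depth in these values was not tested.

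In the macrophage-like cluster, Chek1 had 3 UMIs in EL1 and 1 in WTg, or 5.65 CPM (1.16 to 16.5) and 1.01 CPM (0.0256 to 5.64). Cdc25a was at 3.77 CPM (0.456 to 13.6) and 7.08 CPM (2.85 to 14.6), its lowest group in each library. Atr was at 20.7 CPM (10.3 to 37.1) and 26.3 CPM (17.2 to 38.5) there. All 60 Rrm2 UMIs of immune-like cells in WTg came from 1 of 67 cells.

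Across the 19 groups, the Pearson correlation of log2(CPM + 1) describes which genes ran alongside, over 11052 genes with at least 200 UMIs. The groups of a library share its depth and free RNA. Rrm2 ran closest to Pbk and Tacc3 (r = 0.95 for both), a mitotic kinase and a spindle protein, and Brca1 to Ncapd2 (r = 0.91) and Blm (r = 0.90), a condensin subunit and a helicase. Rpa2 ran closest to Brca2 and Kcnk5 (r = 0.90 for both) and Rpa1 to Ubald2 and Tcp1 (r = 0.88 for both). Topbp1 ran closest to Polg and Pola1 (r = 0.96 for both), genes of the mitochondrial and a nuclear replicative polymerase.

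Atr ran closest to Kdm2a (r = 0.98) and Rbm5 (r = 0.97), Chek1 to Cobll1 and Wwc1 (r = 0.92 for both), Wee1 to Dixdc1 (r = 0.95) and Plekha7 (r = 0.94) and Cdc25a to Vcl and 9530059O14Rik (r = 0.97 for both). The correlation with Top2a over the same groups was 0.87 for Brca1 and 0.80 for Rrm2, and 0.06 for Wee1 and 0.20 for Atr. Among the 9, Chek1 had 0.87 with Wee1 and 0.87 with Cdc25a, while Rrm2 and Wee1 had -0.24. Each group weighs the same in r, also those with few UMIs. In cluster 8, Chek1 had 1 UMI in each library, Wee1 2 in each, and Cdc25a 2 in EL1 and 3 in WTg. The part of such groups in these correlations was not tested.

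Between the libraries, 0 of the 9 genes were called higher and 0 lower over all cells, where 11.4% of 13467 genes were called in either direction. The median log2 ratio of WTg over EL1 of all genes was -0.15, against which the values of this comparison are to be read, and that of the 9 was -0.13. In cycling cells 0 of the 9 were called, with 10.1% of 12613 genes, and in non-cycling cells 0 of the 9, with 10.9% of 11615 genes.

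**Figure D4:**
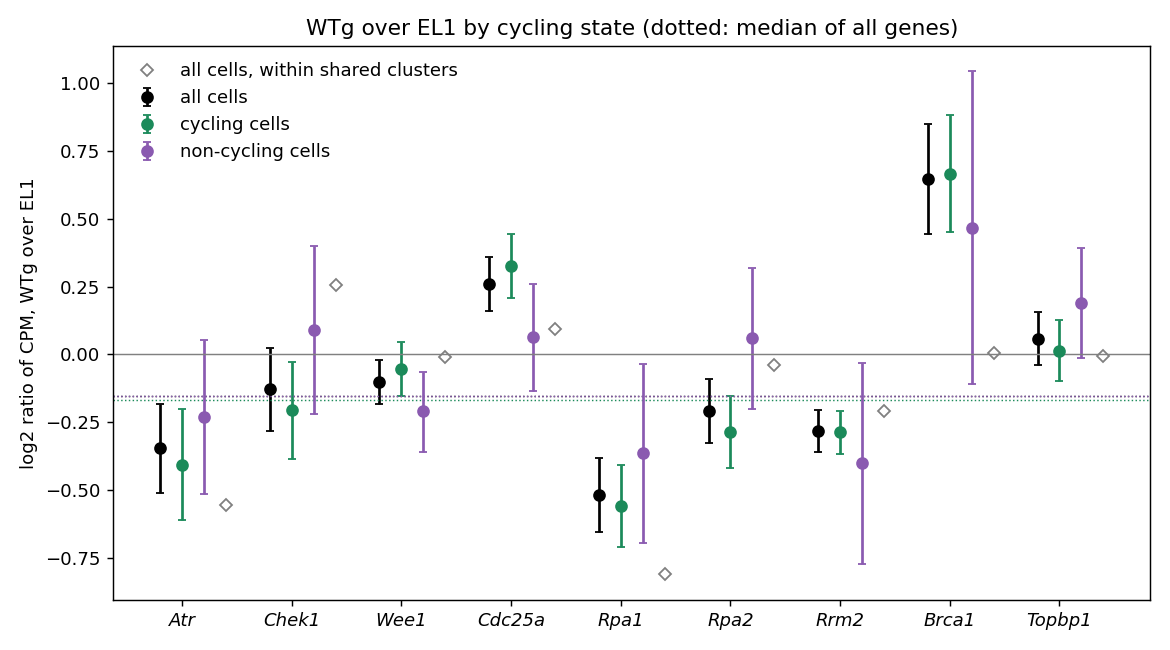
Log2 ratio of WTg over EL1 for each gene over all cells (black), cycling cells (green) and non-cycling cells (purple), with exact 95% counting intervals. Dotted lines are the medians of all genes. Open diamonds, without intervals, are ratios over all cells taken within clusters that hold both libraries, some with few cells of 1 library. Brca1 lies highest over all cells, at 0.65, and near 0 within shared clusters.

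Brca1 and Cdc25a lay above, and Rpa1 below, the median of all genes by the most. Brca1 had 9.27 CPM (8.33 to 10.3) in EL1 against 14.5 CPM (13.2 to 15.9) in WTg, for a log2 ratio of 0.65 (0.44 to 0.85), with 0.67 (0.45 to 0.88) in cycling and 0.47 (-0.11 to 1.04) in non-cycling cells. Over 15 clusters that hold cells of both libraries, compared cluster by cluster, the ratio was 0.0047, and it was 0.14 in cycling and -0.28 in non-cycling cells. Some of these clusters held few cells of 1 library, such as 4 EL1 beside 259 WTg cells in cluster 0. Cluster 10 held 1 EL1 beside 85 WTg cells. All values given within shared clusters share this limit and have no interval. In 4 of 5 clusters with at least 20 cells of each library the Brca1 interval held 0, at -0.28, -0.11, -0.42 and -0.90, and the fifth, cluster 13, had 10 UMIs in WTg and 1 in EL1, a ratio of 3.18 (0.36 to 8.62). The 4 intervals were wide, that of cluster 2 running from -1.14 to 0.72, and held the ratio over all cells too. Dividing clusters that belong to 1 library had 40.7 CPM (35.2 to 46.8) (WTg cluster 10), 28.0 CPM (22.6 to 34.3) (EL1 cluster 11) and 21.1 CPM (16.6 to 26.4) (EL1 cluster 12).

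Rpa1 was lower in WTg, at 21.5 CPM (19.9 to 23.1) against 30.8 CPM (29.1 to 32.6) in EL1, or -0.52 (-0.66 to -0.38) on the log2 scale. The ratio was -0.56 (-0.71 to -0.41) in cycling and -0.36 (-0.69 to -0.04) in non-cycling cells, and -0.81 within shared clusters. With each cell weighted equally the ratio in non-cycling cells was 0.16. Atr was at 15.3 CPM (14.0 to 16.7) in WTg against 19.5 CPM (18.1 to 20.95) in EL1, or -0.35 (-0.51 to -0.18), and -0.55 within shared clusters. Cdc25a was higher in WTg, at 49.9 CPM (47.5 to 52.4) against 41.7 CPM (39.7 to 43.8), or 0.26 (0.16 to 0.36), with 0.33 (0.21 to 0.44) in cycling cells, and 0.09 over all cells within shared clusters.

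For the other 5 genes, Rrm2 had -0.28 (-0.36 to -0.21), Rpa2 -0.21 (-0.33 to -0.09), Chek1 -0.13 (-0.28 to 0.02), Wee1 -0.10 (-0.18 to -0.02) and Topbp1 0.06 (-0.04 to 0.16). The sign for Wee1 turned to 0.047 under TMM and 0.050 under median of ratios scaling, which move all genes by 0.15, and that for Chek1 to 0.020 and 0.023 under the same scalings and to 0.25 within shared clusters. Topbp1 was at -0.0053 within shared clusters.

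In the neuroendocrine-like clusters, 276 EL1 cells (251 of them in cluster 1, led by Resp18 and Penk) were set beside 187 WTg cells (185 of them in cluster 2, led by Serpina1c), so the libraries filled this class with different clusters. Brca1 was at 8.39 CPM in EL1 against 14.2 CPM in WTg, or 0.75 (0.31 to 1.21) on the log2 scale. Topbp1 was at 45.9 against 57.6 CPM, or 0.33 (0.13 to 0.53). Rrm2 was higher in WTg here, at 22.7 against 32.2 CPM, or 0.50 (0.22 to 0.78), and its ratio was 0.55 (0.25 to 0.86) in the cycling and -0.40 (-1.25 to 0.42) in the non-cycling cells of the class. Rpa1 and Wee1 had ratios below 0, at -0.38 (-0.65 to -0.12) and -0.26 (-0.44 to -0.08). Both intervals held -0.15, the median of all genes over all cells. No median of all genes is given for this class.

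Of 69 further genes of the pathway, listed by role, 68 had enough UMIs in each library for the ratio of cycling over non-cycling cells. In EL1, 27 were called higher, where 5.13% of all genes were, and 0 lower, where 2.29% were. In WTg, 30 were called higher, where 4.04% of all genes were, and 0 lower, where 5.5% were. The counts by role that follow stand against the same shares. Their medians were 0.86 and 0.91.

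**Figure D5:**
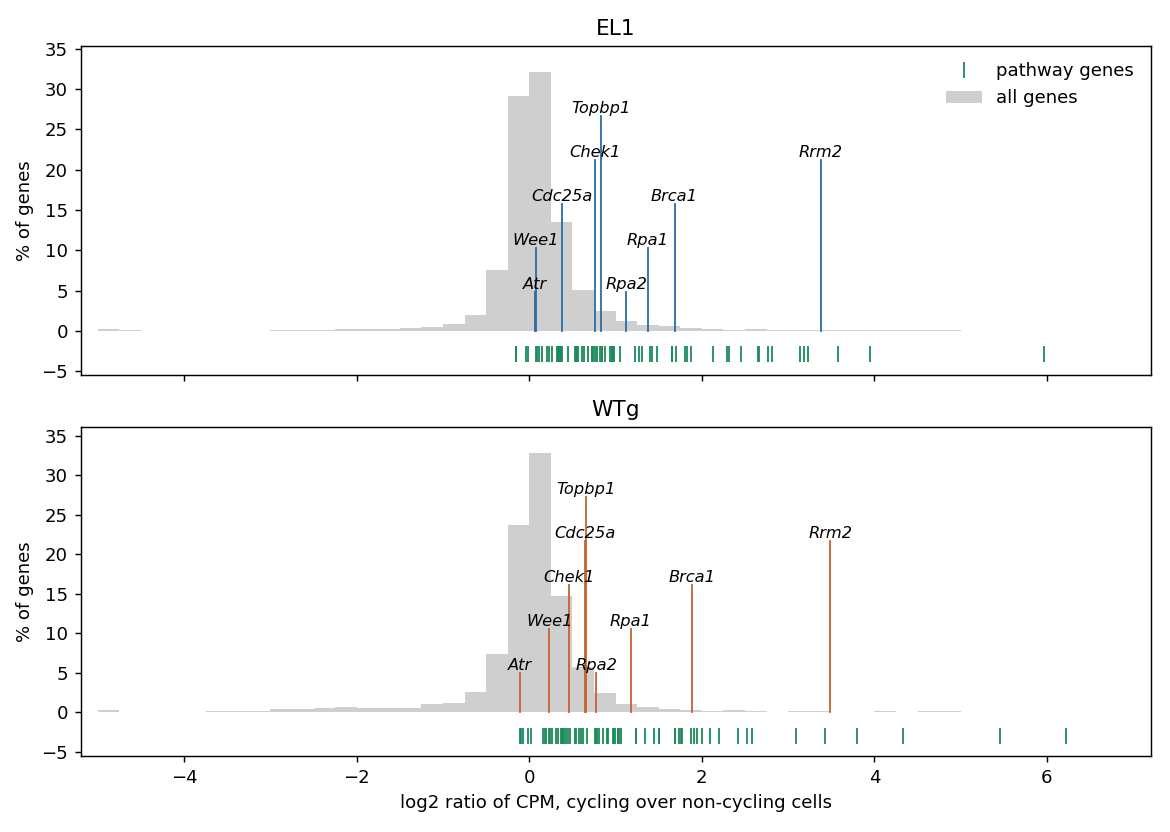
Distribution over all genes with at least 50 UMIs (grey bars, in bins of 0.25) of the log2 ratio of CPM in cycling over non-cycling cells, in EL1 above and WTg below, the outermost bins holding all values beyond them. Labelled lines are the 9 genes and green ticks the pathway genes. Atr and Wee1 lie within the bulk of genes and Rrm2 far to the right in both libraries.

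Of 11 genes of checkpoint and CDK control, 8 were called in both libraries. The 4 highest ratios of the list were there, given as means over both libraries: Ccna2, the cyclin of S and G2 phases, at 6.09, Cdc25c, a phosphatase that activates CDK1, at 4.70, Cdk1, the mitotic kinase, at 3.69, and Ccne1, the cyclin of S phase entry, at 3.33. Non-cycling cells held 16 Ccna2 UMIs in EL1 and 10 in WTg, against 1923 and 1461 in cycling cells. For Cdc25c they held 10 and 3, against 298 and 259.

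Of 8 genes of deoxynucleotide supply, the role of Rrm2, 5 were called in EL1 and 4 in WTg, among them Rrm1, Dck, Tyms and Tk1 in both libraries. Of homologous recombination, the role of Brca1, 7 of 15 genes with enough UMIs were called in each library, among them its partner Bard1, at 2.13 in EL1 and 4.33 in WTg, the latter from 3 UMIs in non-cycling cells. Of the Fanconi anaemia genes, which act on DNA crosslinks, 6 of 14 were called in EL1 and 8 of 14 in WTg. Names beyond the 4 highest and the 4 lowest were given after their values were seen.

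Sensors and activators, the role of Atr and Topbp1, had 0 of 7 called in EL1 and 1 of 7 in WTg (Rhno1, at 1.03). Mediators had 1 of 4 in both, Clspn, which brings CHK1 to ATR, at 2.66 and 2.53. Genes of single-strand DNA and fork remodelling had 0 of 5 and 1 of 5 (Zranb3, at 1.06), and the BRCA1-A complex 0 of 4 in both. The 4 lowest ratios, as means over both libraries, were -0.11 for Atrip, the partner that brings ATR to RPA, -0.07 for Rrm2b, an alternative small reductase subunit, 0.06 for Hus1, of the clamp that loads at damaged DNA, and 0.11 for Samhd1, which degrades deoxynucleotides. For Atrip, as for Atr, the intervals of both libraries held 0.

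Between the libraries, 0 of the 69 pathway genes were called higher over all cells, where 6.85% of 13467 genes were, and 1 lower, where 4.59% were. The gene called lower was Rad51d, listed under homologous recombination, at 6.76 CPM in WTg against 15.9 CPM in EL1. Its log2 ratio was -1.23 (-1.46 to -1.01), with -1.13 in cycling and -1.46 in non-cycling cells. The median of the 69 was -0.13.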

How the data were processed

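The authors deposited UMI counts per gene and barcode, made with Cell Ranger 6.0.2 (matrix header) from 10x 3′ v3.1 libraries. The submitters' processing notes name GRCm38, R 4.1 and Seurat 4.0.5. Intron counting and strand use are not stated. Counts of the kept cells were summed per library and group of cells and divided by all UMIs of the same cells (CPM). Sums have exact Poisson intervals, ratios exact conditional binomial intervals and shares exact Clopper-Pearson intervals, all at 95% and for counting error only. A count of 0 was put at 3 counts (0.0790 CPM in EL1, 0.0909 CPM in WTg). Scanpy 1.11.5 gave the clusters (2000 variable genes, 30 components, 15 neighbours, Leiden resolution 1, leidenalg 0.10.2) and Scrublet called 4 doublets in each library, which were kept. A cluster was named X-like from at least 3 raised markers of a fixed list. The phase lists are those of Seurat 5.3.0, and TMM scaling used edgeR 4.0.16. Positions are from GENCODE M21, matched on gene ID. The ratios and intervals were run on simulated Poisson counts, the model that the intervals assume. Such counts do not cover uneven UMIs among cells. The genes named are the 9, the 4 highest and 4 lowest of the pathway list, and the 2 most alike for each of the 9. The genes and lists were chosen with earlier results of these data known. Alternatives changed the cell filter, scaling, cycling rule, clustering and weighting. Not every listed pathway gene is reported here by name.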

Additional observations from a re-analysis of the deposited data

How the results depend on the processing

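No paired analysis was possible because EL1 and WTg are single libraries, and no replicate could be left out. The median log2 ratio of the 9 genes for WTg over EL1 in all cells, -0.13, turned to 0.020 under TMM scaling and 0.023 under median of ratios scaling, and was -0.0089 within clusters that hold both libraries, a comparison added once the data had been seen. The same scalings turned Wee1 in all cells to 0.047 and 0.050, Wee1 in cycling cells to 0.11 and 0.11, and Chek1 in all cells to 0.020 and 0.023. Within shared clusters, Chek1 (0.25) and Topbp1 (-0.0053) turned sign in all cells, Chek1 (0.27), Cdc25a (-0.011) and Topbp1 (-0.14) in cycling cells, and Wee1 (0.046) and Brca1 (-0.28) in non-cycling cells. With each cell weighted equally, Rpa1 (0.16), Rrm2 (0.45), Chek1 (-0.43) and Rpa2 (-0.15) turned sign in non-cycling cells and Topbp1 (-0.033) in cycling cells. Other cycling rules turned the median of the 9 in non-cycling cells, 0.06, to between -0.15 and -0.020, and turned the sign of Atr, Topbp1, Chek1 or Rpa2 in some comparisons. The median ratio of cycling over non-cycling cells was 0.61 in EL1 when cycling was set after thinning to 10000 UMIs, and in WTg 0.48 with Mki67 alone and 0.84 at 10 Top2a and Mki67 UMIs or more, the last chosen after seeing the data. The share of cycling cells in EL1 (WTg) was 38.8% (37.4%) over all barcodes, 53.5% (56.8%) under the stricter filter, 27.9% (31.7%) at 3 UMIs or more, and 35.9% (39.8%) and 19.1% (22.6%) after thinning to 10000 and 2000 UMIs. The cause of these shifts was not tested beyond the construction of each alternative. Over all alternatives, the Rrm2 ratio of cycling over non-cycling cells ran from 1.77 to 4.34 in EL1 and from 2.38 to 4.53 in WTg. Brca1 rests on 49 and 58 UMIs in non-cycling cells, which limits its ratios.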
